A study of Mus musculus with 2 samples.

Results

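Bone-forming cells are made in the jaw mesenchyme around the tooth germs, and 10 genes of that programme are described here: Runx2, Sp7, Alpl, Ibsp, Ifitm5, Phex, Spp1, Bglap, Sparc and Postn. They are 10 of 22072 gene symbols in the deposited tables and were picked by name, with their levels in these libraries known, so their differences below are a description and carry no test. Of the 10, 8 reached 1 RPKM in at least 1 library and were read as ratios, while Spp1 and Bglap did not. RPKM corrects the read number of a transcript for its length and for the mapped reads of the library.

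One library came from Osr2-/- lower molars and the other from Osr2+/- lower molars, so by these labels both genotypes carry the mutant allele. The series' title and the name of the control's deposited table say wild type instead, and the sample's own label is followed here. In both, mesenchyme was taken by laser capture microdissection from frozen sections of mouse embryos at embryonic day 14.5 on a mixed background. The design text states that 3 control and mutant pairs of samples were pooled for RNA, and the cDNA came from a kit that amplifies small amounts of RNA. With 1 library per genotype there is no replicate error, and every difference is one between 2 libraries that ran on different lanes, per the deposited files' names, and the effects of lane and of genotype cannot be told apart.

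Osteoblasts arise from mesenchyme under the transcription factor Runx2, which works as a dimer with Cbfb and is needed for any osteoblast to form. Sp7 (osterix) acts after Runx2 in the same lineage. Committed cells then raise alkaline phosphatase (Alpl), lay down a collagen matrix with Sparc and Postn, and late in the sequence add the mineral-binding proteins bone sialoprotein (Ibsp), osteopontin (Spp1) and osteocalcin (Bglap). The alveolar bone that holds the molars forms next to the dental mesenchyme, which itself expresses Runx2 without becoming bone at this age.

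Osr2, the targeted gene, was at 9.16 RPKM in the Osr2-/- library and 38.7 RPKM in the Osr2+/- library. What the allele deletes is not stated in the labels, so the reads that remain in Osr2-/- were not placed within the gene. The Osr2-/- library was 6.38 times as deep. About 34300000 mapped reads in Osr2-/- and 5380000 in Osr2+/- were estimated from coverage with an assumed number of bases per read. Each of the 7 dental mesenchyme markers looked for (Msx1, Pax9, Barx1, Lhx6, Lhx8, Prrx1 and Bmp4) was present in both libraries, with summed levels of 270 RPKM in Osr2-/- and 349 RPKM in Osr2+/-. In bulk tissue of this kind, fewer cells of a type and less RNA per cell cannot be told apart.

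The 10 genes lay on both sides of equality. Of the 8 past the filter, 4 (Ibsp, Sp7, Alpl and Ifitm5) were at least 2-fold higher in the Osr2-/- library on the log2(RPKM + 1) scale and none was 2-fold lower. Among all 9779 genes past the filter, 0.89% lay beyond 2-fold on the higher side and 0.798% on the lower side. The 95% counting interval of the fold lay above 1 for 5 of the 8 and below 1 for 3, against 7.87% and 15.9% of all genes. These intervals cover counting error only and rest on estimated read numbers. Every count of genes past 2-fold below uses the log2(RPKM + 1) ratio, with limits of 1 and -1, which understates low genes, so a gene inside these limits can have a plain RPKM fold above 2. Nothing is read from the shares, since the genes were chosen on this contrast. Ifitm5 lay just inside the 2-fold limit with a log2 ratio of 1.08, and Runx2 just outside it with 0.83.

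**Figure D1:**
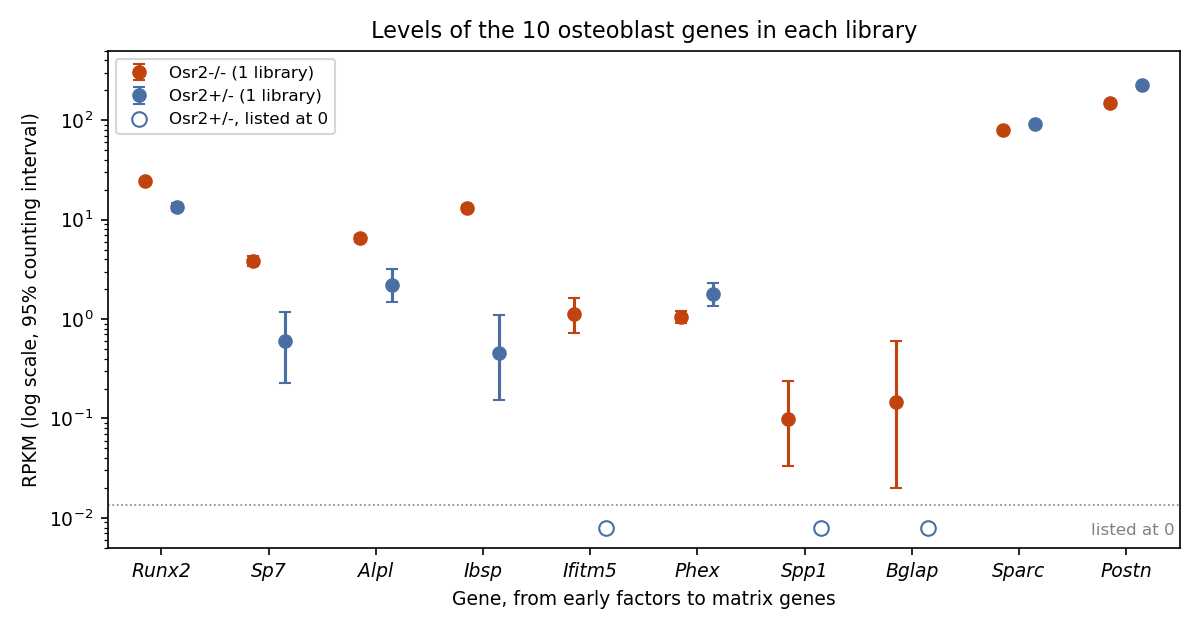
RPKM of the 10 osteoblast genes on a log axis, Osr2-/- left of Osr2+/- for each gene, 1 library each; bars are 95% counting intervals and open circles mark genes listed at 0. Ibsp, Sp7 and Alpl lie apart between the libraries, while Sparc and Postn, at 80.0 to 226 RPKM, are high in both.

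Runx2 was at 24.7 RPKM in the Osr2-/- library and 13.4 RPKM in the Osr2+/- library, 1.84-fold higher (counting interval 1.66 to 2.03). The gene spans 44740950 to 44951746 of chromosome 17 (mm9), and the tables hold 3 transcript rows for it. Runx2 is known to start from a distal and a proximal promoter, which give proteins with different first residues. The gene is on the minus strand, and 2 of its rows end at 44951746, the distal start, while the third ends at 44873597, 78149 bases further in. The 2 distal rows together were at 20.4 RPKM in Osr2-/- and 10.3 RPKM in Osr2+/-, 1.97-fold higher (1.76 to 2.21). The proximal row was at 4.38 RPKM in Osr2-/- and 3.08 RPKM in Osr2+/-, 1.42-fold higher (1.16 to 1.75). By these assigned levels both starts were higher, and the distal one supplied 82.3% of the summed level in Osr2-/- and 77.1% in Osr2+/-. The proximal row lies within the span of the distal rows. The split between starts thus also rests on how shared reads were assigned, which the intervals do not cover.

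The split within the distal pair is much less certain. Row NM_009820 was at 16.2 RPKM with a coverage of 24.6 in Osr2-/-, and at 10.3 RPKM with a coverage of 2.46 in Osr2+/-. Row NM_001146038, which differs from it by 33 bases in length, was at 4.17 RPKM in Osr2-/- and at nearly 0 in Osr2+/-. Such a pair shares almost all its sequence, so few reads can assign a level to one row rather than the other, and the Osr2+/- library had about 326 reads for both. The summed distal level does not depend on the assignment within the pair, but it does on that between the starts. Supt3h, which overlaps the Runx2 locus, was at 2.07 RPKM in Osr2-/- and 2.92 RPKM in Osr2+/-. Its fold was 0.710 (0.453 to 1.18), with a counting interval that includes 1.

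**Figure D2:**
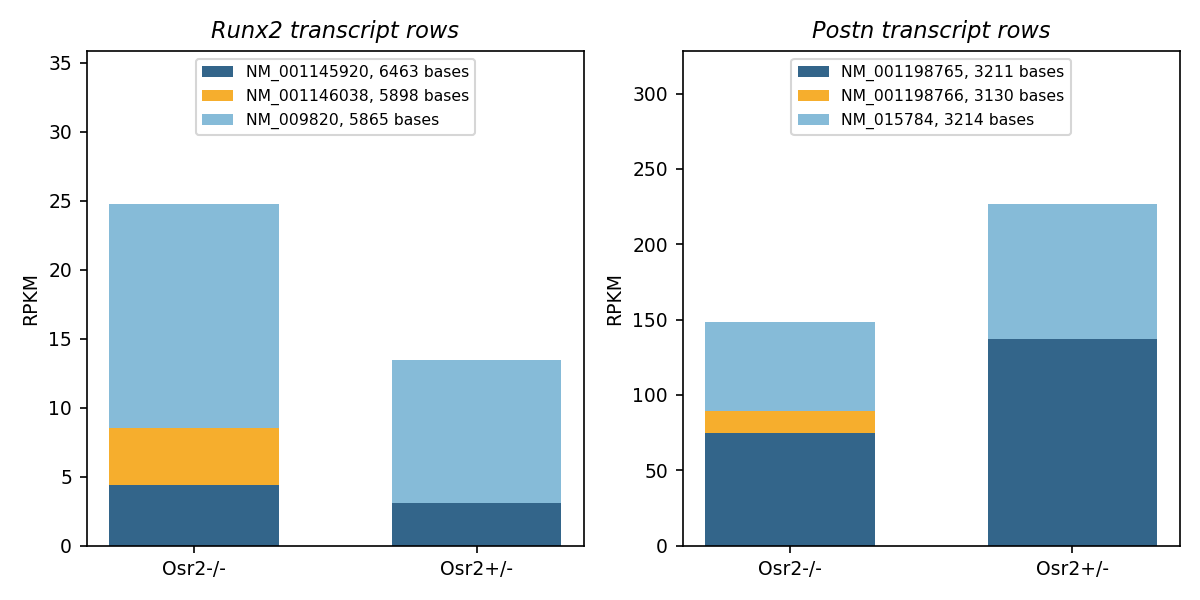
Summed RPKM of Runx2 (left) and Postn (right), stacked by transcript row, in the Osr2-/- and Osr2+/- libraries. In each gene the orange row (NM_001146038 for Runx2, NM_001198766 for Postn) has a level in Osr2-/- and nearly none in Osr2+/-.

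Sp7 was at 3.84 RPKM in the Osr2-/- library (interval 3.42 to 4.30) and 0.607 RPKM in the Osr2+/- library (0.229 to 1.17), 6.33-fold higher (3.23 to 16.9). The Osr2+/- level rests on about 7 reads, while 47.2 would be looked for at the Osr2-/- level and the depth of that library. The intervals of the 2 levels do not overlap. Sp7 lies on chromosome 15 from 102187608 to 102196702, on the same chromosome as Osr2 but 67.0 Mb away from it. Within each library, Runx2 was 6.44 times as abundant per length as Sp7 in Osr2-/- and 22.1 times in Osr2+/-, the latter a rough value from about 7 Sp7 reads.

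Other osteoblast transcription factors and their partners were on both sides. Of 30 listed, 25 passed the filter. On the log2(RPKM + 1) scale 2 (Sp7 and Twist2) were past 2-fold on the higher side and 0 on the lower, and the median log2 ratio was -0.02, against -0.05 over all genes past the filter. Counting intervals lay above 1 for 11 and below 1 for 5. Twist2, a bHLH factor of early mesenchyme that restrains Runx2, was at 4.51 RPKM in Osr2-/- and 1.62 RPKM in Osr2+/-. Dlx3, a homeobox gene of bone and tooth, was at 1.57 RPKM in Osr2-/- and 0.332 RPKM in Osr2+/-, a plain RPKM fold of 4.73 (1.84 to 13.7) but a log2(RPKM + 1) ratio of 0.95. Hey1, a Notch target, was at 6.99 RPKM in Osr2-/- and 3.21 RPKM in Osr2+/-, a plain fold of 2.18 (1.57 to 3.12) and a log2(RPKM + 1) ratio of 0.92. The Runx2 partner Cbfb was at 27.9 RPKM in Osr2-/- and 29.8 RPKM in Osr2+/-, a fold of 0.939 (0.863 to 1.06). Dlx5, which acts upstream of Sp7, was at 18.2 RPKM in Osr2-/- and 18.9 RPKM in Osr2+/-. Runx1, the paralogue of blood and skeletal precursors, was at 4.40 RPKM in Osr2-/- and 3.10 RPKM in Osr2+/-, and Runx3 was at 0.308 RPKM in Osr2-/- and 0.112 RPKM in Osr2+/-.

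Alpl, whose product frees phosphate for mineral, was at 6.51 RPKM in the Osr2-/- library (5.99 to 7.07) and 2.22 RPKM in the Osr2+/- library (1.496 to 3.17), 2.93-fold higher (2.03 to 4.39). It lies on chromosome 4 from 137297647 to 137352292 and is listed with 1 row of 2516 bases, read about 562 times in Osr2-/- and about 30 times in Osr2+/-. Its level intervals do not overlap. Phex, an endopeptidase gene of osteoblasts and osteocytes that keeps the phosphate hormone Fgf23 low, was lower. Its level was 1.05 RPKM in Osr2-/- (0.919 to 1.20) and 1.78 RPKM in Osr2+/- (1.36 to 2.29), 1.69-fold lower (1.25 to 2.26). Phex lies on chromosome X from 153596618 to 153853218, with 3 measured neighbours within 250 kb whose log2 ratios ran from -0.14 to 0.07. Fgf23 was at 0.0332 RPKM in Osr2-/- and listed at 0 in Osr2+/-.

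Of 20 genes for mineralisation enzymes and transporters, 12 passed the filter and only Alpl was past 2-fold on the log2(RPKM + 1) scale. The list's median log2 ratio was -0.08, and -0.11 with a pseudocount of 0.1. On the TPM scale it was 0.55, where more low genes pass the filter, some of them listed at 0 in Osr2+/-. Enpp1, which makes the mineral inhibitor pyrophosphate, was at 13.8 RPKM in Osr2-/- and 6.63 RPKM in Osr2+/-, a plain RPKM fold of 2.09 (1.72 to 2.54) and a log2(RPKM + 1) ratio of 0.96, in the same direction as Alpl, which breaks pyrophosphate down. Anxa5, a matrix vesicle annexin gene, was at 12.2 RPKM in Osr2-/- and 8.15 RPKM in Osr2+/-. The pyrophosphate exporter gene Ank and the phosphate transporter genes Slc20a1 and Slc20a2 had folds of 0.891, 0.897 and 0.947, each with a counting interval that includes 1. Phospho1, a phosphatase gene of matrix vesicles, was below the filter at 0.483 RPKM (about 32 reads) in Osr2-/- and at nearly 0 in Osr2+/-.

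Ibsp, which encodes the bone sialoprotein that binds hydroxyapatite, was at 13.0 RPKM in the Osr2-/- library (12.2 to 13.9) and 0.459 RPKM in the Osr2+/- library (0.154 to 1.11). This is a fold of 28.4 (11.7 to 84.7) and the sixth rank from the top by log2 ratio among 9779 genes, at 3.27. About 875 reads in Osr2-/- and about 5 in Osr2+/- lie behind these levels, and 137 would be looked for in the shallower library at the Osr2-/- level. By level among these 9779 genes, Ibsp held rank 1215 in Osr2-/- and rank 9685 in Osr2+/-. A gene below 1 RPKM in Osr2+/- passes the filter only through its Osr2-/- level. The filter thus sets a late Osr2+/- rank, and nothing is read from it. Runx2 was 1.90 times as abundant per length as Ibsp in Osr2-/- and 29.3 times in Osr2+/-, and Sparc was 6.14 times as abundant in Osr2-/- and 199 times in Osr2+/-. The Osr2+/- ratios divide by the Ibsp level from about 5 reads, so they are rough and largely restate the Ibsp difference.

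Spp1 and Bglap, the other mineral-binding members, were close to the detection limit in both libraries. Spp1 was at 0.0992 RPKM in Osr2-/- (0.0333 to 0.240, about 5 reads) and listed at 0 in Osr2+/-. Almost all of that, 98.0%, was on 1 of its 5 rows. Bglap was at 0.147 RPKM in Osr2-/-, about 2 reads, and listed at 0 in Osr2+/-. At the depth of the Osr2+/- library, the Osr2-/- levels would give 0.757 reads of Spp1 and 0.277 reads of Bglap, so a difference was not detectable at this depth. If the zeros are true, 3 reads allow up to 0.368 RPKM of Spp1 and 1.17 RPKM of Bglap there. Reads cannot be placed with certainty between Bglap and its near-identical copy Bglap2, which was at 0.333 RPKM and about 5 reads in Osr2-/- and listed at 0 in Osr2+/-.

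The late markers of matrix-embedded cells were as low. Of 12 genes listed as acidic mineral-binding, 4 passed the filter and only Ibsp was past 2-fold on the log2(RPKM + 1) scale. The list includes Ibsp, Sparc, Spp1 and Bglap, and also the endopeptidase gene Phex, which is not such a protein. The median log2 ratio was -0.16, and -0.18 with a pseudocount of 0.1. On the TPM scale it was 0.56, where genes with a few reads in Osr2-/- and listed at 0 in Osr2+/- pass the filter. Nothing is read from that value. Dmp1, a matrix protein gene of osteocytes and odontoblasts, was at 0.00933 RPKM in Osr2-/- and 0.0610 RPKM in Osr2+/-, about 1 read in each. Mepe and Dspp, of the same gene family, were listed at 0 in both libraries, as was the osteocyte gene Sost.

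Ifitm5, a membrane protein gene found almost only in osteoblasts, was at 1.12 RPKM in the Osr2-/- library (0.732 to 1.62, about 27 reads) and listed at 0 in the Osr2+/- library. The Osr2-/- level would give 4.25 reads there, and 3 reads allow up to 0.787 RPKM if the zero is true. The lower bound of its fold was 1.07, and 0.689 when a read was taken as 1.5 times as long, so the difference sits at the edge of what the shallower library can show. Of its paralogues nearby on chromosome 7, Ifitm2, 4.6 kb away, was at 164 RPKM in Osr2-/- and 184 RPKM in Osr2+/-, and Ifitm3 was at 15.7 RPKM in Osr2-/- and 16.7 RPKM in Osr2+/-. Ifitm1 was at 4.59 RPKM in Osr2-/- and 3.50 RPKM in Osr2+/-, a fold of 1.31 (0.745 to 2.57). Ifitm6, like Ifitm5, was low in Osr2-/-, at 0.312 RPKM or about 6 reads, and listed at 0 in Osr2+/-. Of 18 late osteoblast and osteocyte genes, 9 passed the filter, with Ifitm5 and Panx3 past 2-fold on the higher side of the log2(RPKM + 1) scale and none on the lower. The median log2 ratio was -0.02, and -0.66 with a filter of 5 RPKM, which leaves only Lox and Tmem119. On the TPM scale it was 1.04, where more low genes pass the filter, some with a few reads in Osr2-/- only. Panx3, a channel gene of osteoblasts and prehypertrophic cartilage, was at 1.13 RPKM in Osr2-/- (about 98 reads) and 0.0653 RPKM in Osr2+/- (about 1 read). Lox, which cross-links collagen, was at 3.18 RPKM in Osr2-/- and 7.10 RPKM in Osr2+/-, 2.23-fold lower in plain RPKM (1.83 to 2.73) with a log2(RPKM + 1) ratio of -0.95.

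**Figure D3:**
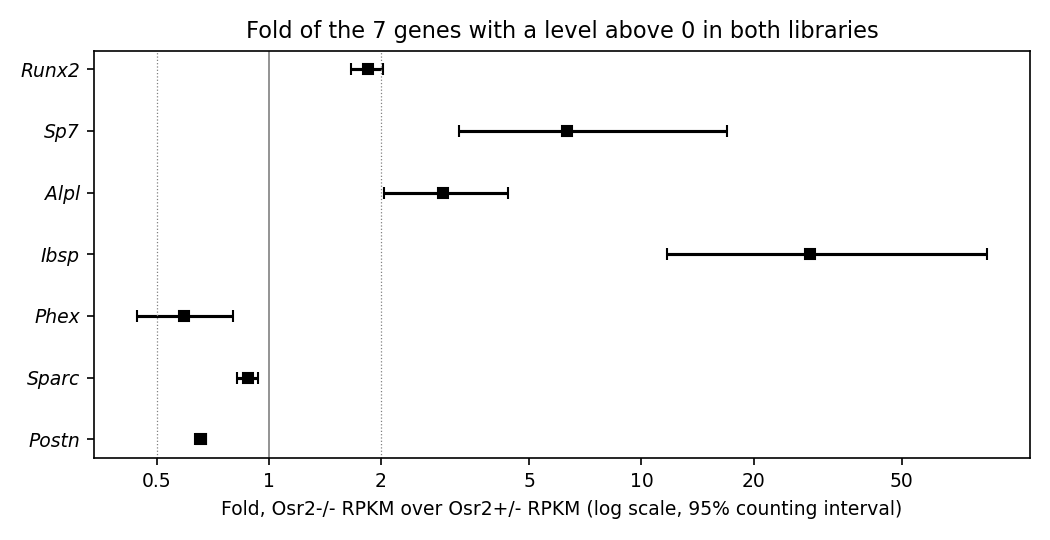
Fold of Osr2-/- over Osr2+/- RPKM for the 7 genes above 0 in both libraries, with 95% counting intervals on a log axis; the solid line is equality and the dotted lines are 2-fold. Runx2, Sp7, Alpl and Ibsp lie right of equality and Phex, Sparc and Postn left of it, and the intervals of Sp7 and Ibsp are the widest of the 7.

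Sparc and Postn, the 2 abundant matrix genes, were lower in the Osr2-/- library. Sparc encodes osteonectin, a collagen-binding glycoprotein made by many mesenchymal cells. Its level was 80.0 RPKM in Osr2-/- (78.1 to 82.0) and 91.3 RPKM in Osr2+/- (85.99 to 96.7), 1.14-fold lower (1.07 to 1.21). The log2 ratio of -0.19 was near the median of -0.05 over all genes. Postn encodes periostin, a matrix protein of periosteum and periodontal ligament. It was at 149 RPKM in Osr2-/- (146 to 151) and 226 RPKM in Osr2+/- (219 to 234), 1.52-fold lower (1.48 to 1.58), and held rank 326 from the bottom by log2 ratio. Together these 2 genes made up 81.9% of the summed RPKM of the 10 genes in Osr2-/- and 94.5% in Osr2+/-. The other 8 genes summed to 50.5 RPKM in Osr2-/- and 18.5 RPKM in Osr2+/-.

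The 3 Postn rows were not lower in equal measure. Row NM_001198765, of 3211 bases, was at 74.5 RPKM in Osr2-/- and 137 RPKM in Osr2+/-, and row NM_015784, of 3214 bases, at 58.9 RPKM in Osr2-/- and 89.3 RPKM in Osr2+/-. The shorter row NM_001198766, of 3130 bases, was at 15.2 RPKM in Osr2-/- and at nearly 0 in Osr2+/-, which is 10.2% of the summed level in Osr2-/-. As with Runx2, a row that shares most of its sequence with others was assigned a level in the deeper library only. Whether depth plays a part in this was not tested.

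Bone matrix genes as a group lay on both sides of equality. Of 29 listed, 28 passed the filter, none was past 2-fold in either direction on the log2(RPKM + 1) scale, and the median log2 ratio was 0.05, with counting intervals above 1 for 9 and below 1 for 9. Tnn, tenascin-W, which is made where bone forms, was at 1.76 RPKM in Osr2-/- and 0.534 RPKM in Osr2+/-, a plain RPKM fold of 3.30 (1.99 to 5.62) and a log2(RPKM + 1) ratio of 0.85. Omd, the gene of the bone proteoglycan osteomodulin, was at 2.35 RPKM in Osr2-/- and 1.12 RPKM in Osr2+/-, a plain fold of 2.10 (1.09 to 4.12). The collagen-binding proteoglycan gene Dcn was at 19.9 RPKM in Osr2-/- and 34.7 RPKM in Osr2+/-. Type I collagen was split: Col1a1 was at 86.7 RPKM in Osr2-/- and 83.2 RPKM in Osr2+/-, a fold of 1.04 (0.995 to 1.09), and Col1a2 was at 73.4 RPKM in Osr2-/- and 86.3 RPKM in Osr2+/-, a fold of 0.850 (0.814 to 0.889). Receptors and signals that act on osteoblasts had 21 of 28 genes past the filter, none past 2-fold on the log2(RPKM + 1) scale, and a median log2 ratio of -0.03. The ligand gene Bmp2 was at 5.14 RPKM in Osr2-/- and 2.19 RPKM in Osr2+/-, a plain RPKM fold of 2.35 (1.60 to 3.48) and a log2(RPKM + 1) ratio of 0.95. The receptor gene Fgfr2 was at 10.7 RPKM in Osr2-/- and 5.37 RPKM in Osr2+/-, and the growth factor gene Igf1 at 7.99 RPKM in Osr2-/- and 3.94 RPKM in Osr2+/-.

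**Figure D4:**
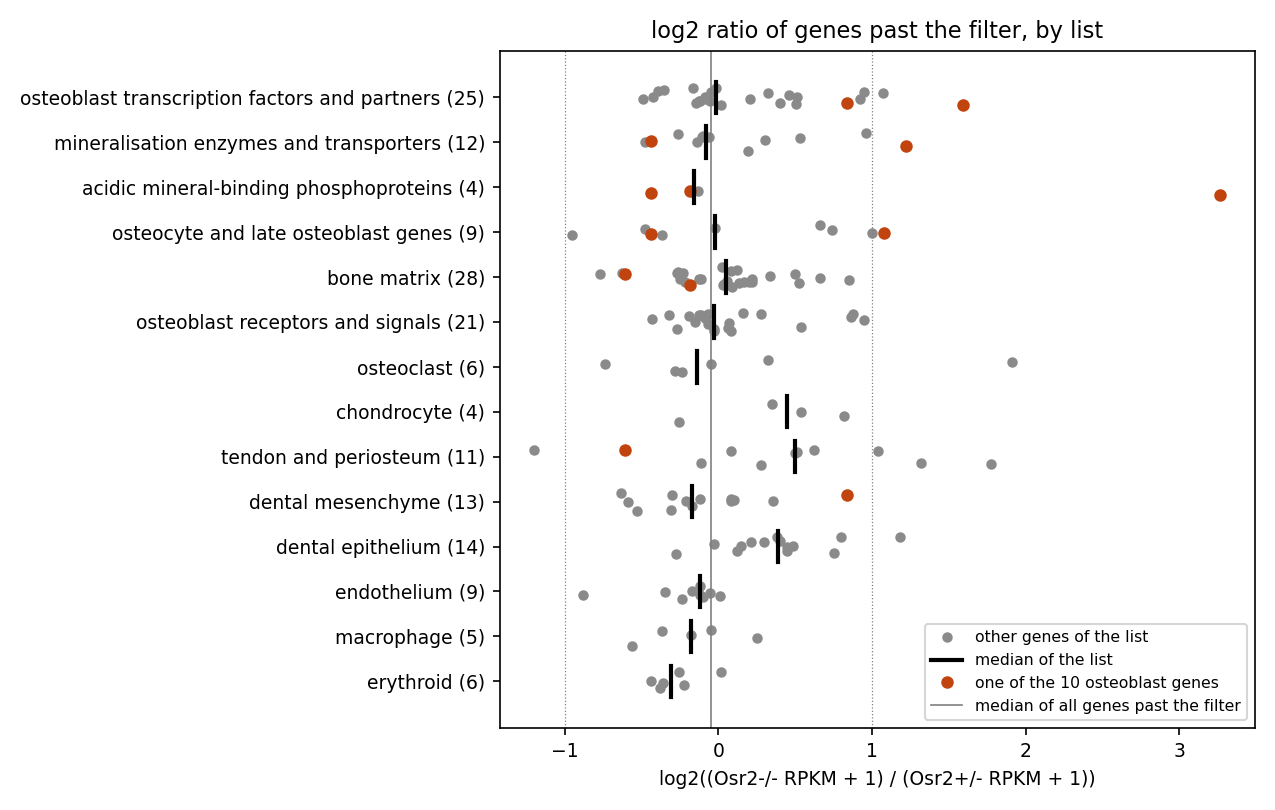
log2((Osr2-/- RPKM + 1) / (Osr2+/- RPKM + 1)) of genes past the filter, by list, with the number of genes in brackets; points are genes, orange points are among the 10 osteoblast genes, black bars are list medians, the grey line is the median of all genes and dotted lines are 2-fold. Bone matrix genes centre near 0, with a median of 0.05, while Ibsp lies at 3.27.

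Markers of other cells differed between the same libraries. Dental epithelium genes had 14 of 21 past the filter, 8 with a counting interval above 1 and none below, a median log2 ratio of 0.39, and summed levels of 71.5 RPKM in Osr2-/- and 51.5 RPKM in Osr2+/-. Krt17 was at 4.63 RPKM in Osr2-/- and 1.48 RPKM in Osr2+/-. Chondrocyte genes had 4 of 20 past the filter and summed to 20.1 RPKM in Osr2-/- and 14.2 RPKM in Osr2+/-. Col2a1 was at 7.90 RPKM in Osr2-/- and 4.05 RPKM in Osr2+/-, while the defining cartilage genes Acan and Matn1 were at 0.00956 and 0 RPKM in Osr2-/- and both listed at 0 in Osr2+/-. Tendon and periosteum genes had 11 of 13 past the filter. On the log2(RPKM + 1) scale 3 (Tnmd and the immediate early genes Egr1 and Egr2) were past 2-fold on the higher side and 1 (Ogn) on the lower. Tnmd, a tendon membrane protein gene, was at 5.76 RPKM in Osr2-/- and 0.979 RPKM in Osr2+/-, and the proteoglycan gene Ogn at 3.40 RPKM in Osr2-/- and 9.09 RPKM in Osr2+/-. Dental mesenchyme genes had 13 of 14 past the filter and a median log2 ratio of -0.17, with Pax9 at 39.4 RPKM in Osr2-/- and 61.7 RPKM in Osr2+/-. The part of these differences in the levels of the osteoblast genes was not tested.

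Of 15 genes listed for osteoclasts, the cells that resorb bone, 6 passed the filter. Of these, 1 (Mmp9) was past 2-fold on the higher side of the log2(RPKM + 1) scale, and the median log2 ratio was -0.14. The 6 genes taken as defining were mostly near 0 in both libraries. Among those 6, only Ctsk passed the filter, at 2.65 RPKM in Osr2-/- and 5.07 RPKM in Osr2+/-. Acp5 was at 0.442 RPKM in Osr2-/- and 0.508 RPKM in Osr2+/-, Calcr and Ocstamp (4833422F24Rik in the files) were at 0.0374 and 0.0913 RPKM in Osr2-/- and listed at 0 in Osr2+/-, and Oscar and Dcstamp (Tm7sf4 in the files) were listed at 0 in both. Mmp9, a protease gene of osteoclasts and other cells, was at 4.66 RPKM in Osr2-/- and 0.502 RPKM in Osr2+/-, 9.27-fold higher (4.94 to 22.9), on about 501 reads in Osr2-/- and 8 in Osr2+/-. Blood and vessel lists had median log2 ratios below that of all genes: endothelium -0.12 (9 of 10 past the filter), macrophage -0.18 (5 of 10) and erythroid -0.31 (6 of 9), with summed levels of 28.1, 19.2 and 614 RPKM in Osr2-/-, against 33.8, 24.6 and 799 RPKM in Osr2+/-.

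Ibsp sits in a cluster of related mineral-binding protein genes on chromosome 5 (104728306 to 104740491), and the genes around it that passed the filter differed little between the libraries. Within 250 kb, 10 other genes are listed, 4 passed the filter, and their log2 ratios ran from -0.19 to -0.03. Sparcl1, a relative of Sparc, was at 3.09 RPKM in Osr2-/- and 3.48 RPKM in Osr2+/-, Pkd2, the polycystin-2 channel gene, at 5.21 RPKM in Osr2-/- and 6.09 RPKM in Osr2+/-, and Nudt9 at 2.38 RPKM in Osr2-/- and 2.80 RPKM in Osr2+/-. Dspp, Dmp1, Mepe and Spp1, the nearest relatives of Ibsp, are those described above as at or near 0. Scpppq1, another gene of the cluster, was listed at 0 in both. Around all 10 members, 56 other genes passed the filter. Of these, 1 (Gm12238, about 4 reads in Osr2-/- and listed at 0 in Osr2+/-) was past 2-fold on the log2(RPKM + 1) scale, and the median log2 ratio was -0.08. In plain RPKM, Trpc4 near Postn was 2.39-fold lower (1.54 to 3.56) and Sema4a near Bglap 2.12-fold lower (1.05 to 3.49).

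**Figure D5:**
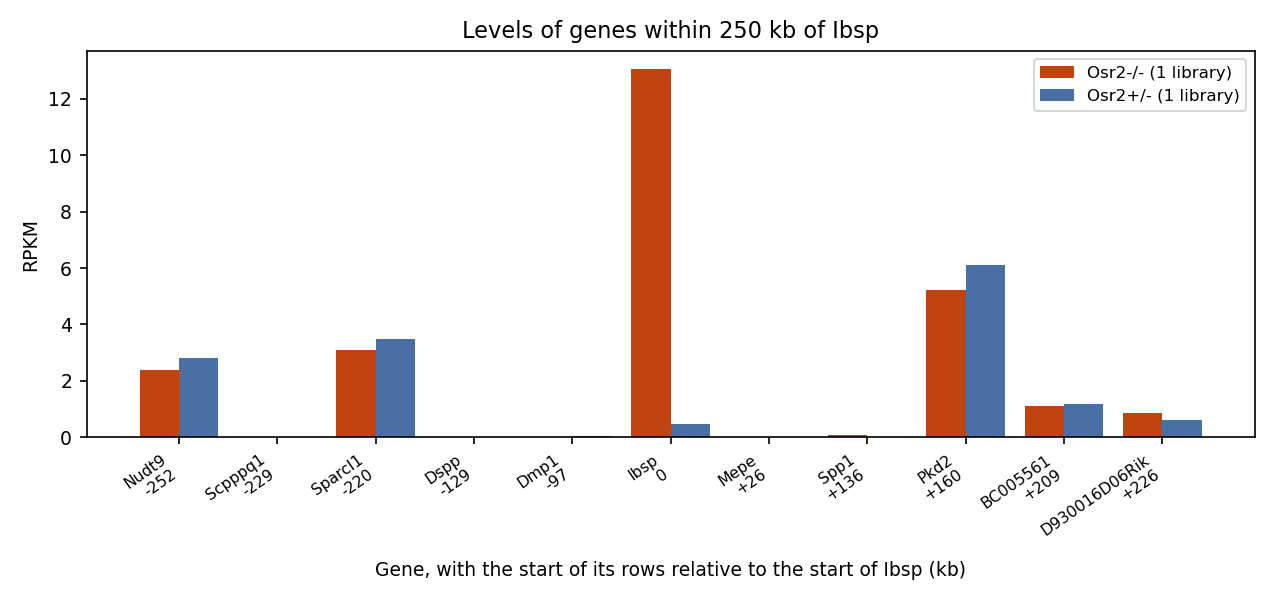
RPKM of Ibsp and the 10 genes within 250 kb of it, in order along the chromosome with the offset of each gene's start from that of Ibsp in kb; Osr2-/- bars stand left of Osr2+/- bars, 1 library each. Ibsp is at 13.0 RPKM in Osr2-/- and 0.459 RPKM in Osr2+/-, while Sparcl1 and Pkd2 differ little between the libraries.

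Promoter sequences are given for 5 genes that stand for the 3 kinds of behaviour: high in the Osr2-/- library (Ibsp, Alpl), barely detected (Spp1, Bglap) and abundant in both (Postn). Each run is the 250 bases before a RefSeq start in GRCm38.p6, written 5′ to 3′ on the gene's strand. Capitals mark 5 short motifs on either strand: TGTGGT (the Runx core), TATAAA (the TATA box), CCAAT (the box named after its letters), GGGCGG (the GC box, bound by Sp factors) and TAATTG (a homeodomain core). Of the 10 members, 9 have an entry in the RefSeq table, with 12 start sites in all.
Ibsp promoter, chr5:104299037-104299286, plus strand: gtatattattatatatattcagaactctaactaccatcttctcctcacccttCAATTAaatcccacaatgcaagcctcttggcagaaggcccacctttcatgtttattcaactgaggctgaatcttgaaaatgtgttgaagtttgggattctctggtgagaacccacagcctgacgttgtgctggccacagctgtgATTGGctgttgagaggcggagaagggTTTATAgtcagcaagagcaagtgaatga
Alpl promoter, chr4:137796385-137796634, minus strand: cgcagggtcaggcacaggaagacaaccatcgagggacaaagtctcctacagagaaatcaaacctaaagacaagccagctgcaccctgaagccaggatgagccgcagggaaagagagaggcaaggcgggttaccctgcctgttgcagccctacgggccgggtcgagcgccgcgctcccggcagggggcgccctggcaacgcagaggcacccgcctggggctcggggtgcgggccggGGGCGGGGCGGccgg
Spp1 promoter, chr5:104434861-104435110, plus strand: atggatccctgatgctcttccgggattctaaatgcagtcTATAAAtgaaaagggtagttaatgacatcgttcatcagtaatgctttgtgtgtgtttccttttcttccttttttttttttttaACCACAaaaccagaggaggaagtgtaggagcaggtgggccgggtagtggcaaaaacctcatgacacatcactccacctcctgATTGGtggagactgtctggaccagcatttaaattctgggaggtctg
Bglap promoter, chr3:88384467-88384716, minus strand: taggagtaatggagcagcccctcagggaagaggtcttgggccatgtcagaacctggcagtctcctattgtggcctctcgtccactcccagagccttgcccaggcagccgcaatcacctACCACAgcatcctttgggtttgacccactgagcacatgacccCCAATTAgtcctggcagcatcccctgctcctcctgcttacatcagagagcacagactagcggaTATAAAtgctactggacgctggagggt
Postn promoter, chr3:54360857-54361106, plus strand: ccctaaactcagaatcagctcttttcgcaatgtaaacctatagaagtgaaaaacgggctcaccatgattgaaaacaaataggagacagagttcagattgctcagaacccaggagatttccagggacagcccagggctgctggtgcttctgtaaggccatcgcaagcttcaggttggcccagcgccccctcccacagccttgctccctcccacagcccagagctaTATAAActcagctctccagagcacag

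Ibsp, Bglap and Postn have a TATAAA match, on either strand, that starts 28, 27 and 26 bases before the annotated start. In Ibsp it reads TTTATA, with CCAAT, also inverted, 54 bases before the start, the arrangement for which this promoter is known in rat and human. A match starting 16 to 35 bases upstream, a range chosen after these sequences were seen, was found in 2.43% of all 32851 RefSeq windows, and a match anywhere in the 250 bases in 12.4%. One GENCODE transcript of Ibsp starts within the window shown. The Alpl window shown has no TATAAA, which the window of its other RefSeq start has 192 bases upstream, and holds 2 overlapping GGGCGG matches 15 and 10 bases before the start, a motif in 32.7% of all windows.

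TGTGGT was found in 3 of the 12 windows of the members, those of Runx2, Spp1 and Bglap, and in 14.0% of all windows. In Spp1 and Bglap it reads ACCACA, 128 and 132 bases before the start, and both genes were at the detection limit. Ibsp and Alpl have no TGTGGT in their windows. TAATTG was found in 4 of the 12 windows (Bglap, Ibsp, Phex and Postn) and in 7.17% of all windows. The Postn match is in the window of its other start, which is not shown. CCAAT was found in 3 of the 12 (Bglap, Ibsp and Spp1) and in 33.8% of all windows. In Bglap the CCAAT and TAATTG matches overlap in the run CCAATTA. Ibsp and Bglap, which share 3 of the 5 motifs, were at 13.0 and 0.147 RPKM in Osr2-/-, and a match in this window is a letter match only.

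Genes with ratios nearest to those of Ibsp and Runx2 were sought among 3689 other genes at 5 RPKM or more, with a row of at least 300 bases and no predicted or clone name, by the difference of log2 ratios over the 2 libraries. The nearest to Ibsp, at 3.27, were Xist, Tnmd and Amd1, with log2 ratios of 2.32, 1.77 and 1.48. The 5 genes with a ratio above that of Ibsp were outside this search, 4 for a row under 300 bases and 1 for its name. Xist is the RNA that coats the inactive X chromosome of female cells, and the labels do not give the sex of the pooled embryos. Runx2 had near matches in Eef1e1, Mrps5 and Col2a1, with differences of 0.0031, 0.014 and 0.016. Over 2 libraries, many genes share a ratio, and this likeness says nothing more.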

How the data were processed

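RNA of 1 Osr2-/- and 1 Osr2+/- library was described with 1 deposited table each. The submitters' processing notes name Bowtie 0.12.7, TopHat 1.4.1 and mm9; the tables are named for Cufflinks, with no version given in the sources used here. The authors deposited RPKM per RefSeq transcript row, used as given, and coverage, a signal without scaling for library size; per the file headers the tables also hold length and status. Coverage divided by RPKM was constant within each library, 1.52 in Osr2-/- and 0.238 in Osr2+/-, which gave the ratio of the depths.

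The 54 rows (18 genes) marked FAIL or HIDATA in either table were dropped and the others summed per symbol. The log2 ratio used a pseudocount of 1 RPKM, which understates differences of low genes, for genes at 1 RPKM or more in at least 1 library. Reads were estimated as coverage times length divided by 44.3 bases, the median of low products between 20 and 66 bases averaged over the libraries. That window itself holds the median near its middle, and the labels do not give the read length. Of low values, 25.0% in Osr2-/- and 26.4% in Osr2+/- fell within 0.1 of a whole read. Evenly spread values would give little less, so the divisor is an assumption, the reads are approximate and no count model was fitted. From them come 95% exact Poisson intervals of levels and Clopper-Pearson intervals of folds, which compare the reads of 2 libraries, cover counting error only and treat amplified reads as independent. Exact zeros can be failed estimates, so such genes are called listed at 0 and given no fold. The ratio and interval code was tested on simulated data.

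The 10 genes and the gene lists were chosen with earlier results of these data known. Named genes were Osr2, the 10 genes, up to 3 genes per list past the filter, by size of log2 ratio, the cell type markers, genes within 250 kb of Ibsp and the 3 genes nearest in ratio to Ibsp and Runx2. Hey1, Cbfb, Dlx5, Runx1, Runx3, Supt3h, Fgf23, Ank, Slc20a1, Slc20a2, Phospho1, Sost, Ifitm1, Ifitm2, Ifitm3, Ifitm6, Bglap2, Col1a1, Col1a2, Egr1, Gm12238, Trpc4 and Sema4a were named after their values were seen. Start sites and promoter sequences come from RefSeq (GRCm38.p6); all other coordinates are mm9 from the files, counted from 1. Python 3.11.15, pandas 2.3.3 and scipy 1.17.1 were used.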

Additional observations from a re-analysis of the deposited data

How the results depend on the processing

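The count of osteoblast genes at least 2-fold higher in Osr2-/- was 4 under pseudocounts of 0.1 and 0.5 and with no filter. It was also 4 with the highest transcript row, centring on the median gene and with all rows kept. With a filter of 5 RPKM, which removes Sp7 and Ifitm5, it was 2. On the TPM scale it was 5, where 9 of the osteoblast genes passed the filter and Runx2 stayed at 0.92. The gene added there was Spp1 or Bglap, with about 5 and 2 reads in Osr2-/- and both listed at 0 in Osr2+/-. Nothing is read from that addition. The count 2-fold lower was 0 under each of these settings. None of the 8 genes changed the sign of its log2 ratio under any of these: Ibsp ran from 3.27 to 4.58, Sp7 from 1.59 to 2.51, Alpl from 1.22 to 1.55, Ifitm5 from 1.08 to 3.604, Runx2 from 0.60 to 0.92, Phex from -0.71 to -0.39, Sparc from -0.19 to -0.14 and Postn from -0.87 to -0.56. The lowest Runx2 value and the lowest Postn value came with the highest transcript row. Over all genes, the counts 2-fold higher and lower, 87 and 78, became 895 and 690 on the TPM scale, 24 and 26 with the filter of 5 RPKM, 151 and 270 with the highest row, and 197 and 244 with a pseudocount of 0.1; the lower count became 135 with a pseudocount of 0.5. Counting intervals above 1 were found for 770 genes, and for 459 when a read was taken as 1.5 times as long. Of 119 list medians under these settings, 7 moved. On the TPM scale the medians of the mineralisation, acidic protein and late osteoblast lists, -0.08, -0.16 and -0.02, became 0.55, 0.56 and 1.04. More low genes pass the filter there, some with a few reads in Osr2-/- and listed at 0 in Osr2+/-. With the filter of 5 RPKM the late osteoblast median became -0.66, from Lox and Tmem119 alone. As it was 1.04 on the TPM scale, its sign depends on the setting. The filter of 5 RPKM also took the acidic protein median to 1.54, from Ibsp and Sparc alone. It took the osteoclast median from -0.14 to -0.74, the value of Ctsk alone. With no filter the chondrocyte median went from 0.44 to 0.05. Leaving out a replicate was not possible with 1 library per genotype. No paired analysis was possible because each genotype has 1 library, made from pooled tissue. About 5 Ibsp reads and 7 Sp7 reads set the Osr2+/- levels of these genes, and depth limits any statement on Spp1 and Bglap.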

Other observations

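Of 9 tooth matrix genes, 7 were listed at 0 in both libraries, Dmp1 was near 0, and the enamel matrix gene Ambn was at 3.88 RPKM in Osr2-/- and 2.23 RPKM in Osr2+/-, 1.74-fold higher (1.13 to 2.85).

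Runx1, like Runx2, was listed with several rows that share much of their sequence, and its summed level was 4.40 RPKM in Osr2-/- and 3.10 RPKM in Osr2+/-. Row NM_001111023 held 90.1% of it in Osr2-/- and 46.4% in Osr2+/-. Row NM_001111022 held 18.5% in Osr2+/-, about 17 reads, and nearly none in Osr2-/-, so rows at nearly 0 also occurred in the deeper library.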
